A study of Mus musculus with 6 samples.

Results

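Natural killer (NK) receptor and cytotoxic effector genes were examined in mouse thymus across 2 F1 crosses. The set holds 10 genes chosen by name: the receptor genes Klrd1, Klrk1, Klrc1, Klrb1c, Klre1 and Ncr1, and the effector genes Gzma, Gzmb, Prf1 and Nkg7. A probe set was taken where the platform annotation gave it exactly 1 gene symbol and that symbol was in the set. This gave 11 of the 45101 probe sets on each array, for 9 of the 10 genes. Klrb1c had none, since its probe set is shared with Klrb1b.

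The arrays held thymus RNA of adult mice, all female: 3 arrays for the AKR cross, (AKR/J x FVB/NJ)F1, and 3 for the DBA cross, (DBA/2J x FVB/NJ)F1. FVB/NJ is a parent of both crosses, so the groups differ in the AKR/J or DBA/2J parent. No treatment separates them, and the design text asks for basal expression differences between the genotypes. The labels do not say whether the arrays came from separate animals, so p-values measure the spread between these arrays, which may be technical.

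NK cells and other cytotoxic lymphocytes kill target cells by releasing granules. Perforin (Prf1) forms pores in the target membrane, and granzymes (Gzma and Gzmb) are serine proteases that enter the target cell and start its death. Release is governed by a balance of activating and inhibitory receptors, many of them C-type lectin-like proteins of the NK gene complex on mouse chromosome 6. CD94 (Klrd1) pairs with NKG2A (Klrc1) into an inhibitory receptor for the nonclassical class I molecule Qa-1, while NKG2D (Klrk1) and NKp46 (Ncr1) are activating. In the thymus these genes are read against a background of T cell precursors, since some innate-like and mature T cells also carry them. The DBA/2J strain is known from other work for a deletion in Klrd1 that leaves it without CD94. The place of the Klrd1 probe set relative to that deletion was not checked.

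Values are the deposited log2 levels, with array medians from 5.92 to 5.95, and correlations between arrays over all probe sets ran from 0.994 to 0.996 within a cross and from 0.984 to 0.989 between crosses. Probe sets differ in how brightly their probes hybridise, so each was compared between arrays only, and its place relative to the array median is a description. Differences are log2 levels in the AKR cross minus those in the DBA cross, so a negative one was lower in the AKR cross. Testing required a value above the 40th percentile on no fewer than 3 of the 6 arrays, and a probe set was called where limma gave a Benjamini-Hochberg adjusted p under 0.05 over all 27374 tested probe sets. The tissue label was checked with 8 thymocyte markers (Cd3e, Cd4, Cd8a, Cd8b1, Rag1, Dntt, Ptcra and Cd1d1), and all 8 were above the array median on all 6 arrays.

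Relative to the array median, the NK and cytotoxic genes fell into 3 classes. Klrd1, Klrk1, Gzma and Nkg7 (4 probe sets) lay above it on all 6 arrays. Both Klrc1 probe sets, Klre1, Ncr1 and the Prf1 probe set 1450335_at (5 probe sets) lay below it on all 6. Gzmb lay below it on 3 arrays and the other Prf1 probe set, 1451862_a_at, on 2. Of the 11 probe sets, 8 passed the filter and were tested, and Klre1, Klrc1 1426182_a_at and Prf1 1450335_at were too dim. No detection calls were used here, so how much of the signal of the 5 probe sets below the median is background was not tested.

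**Figure D1:**
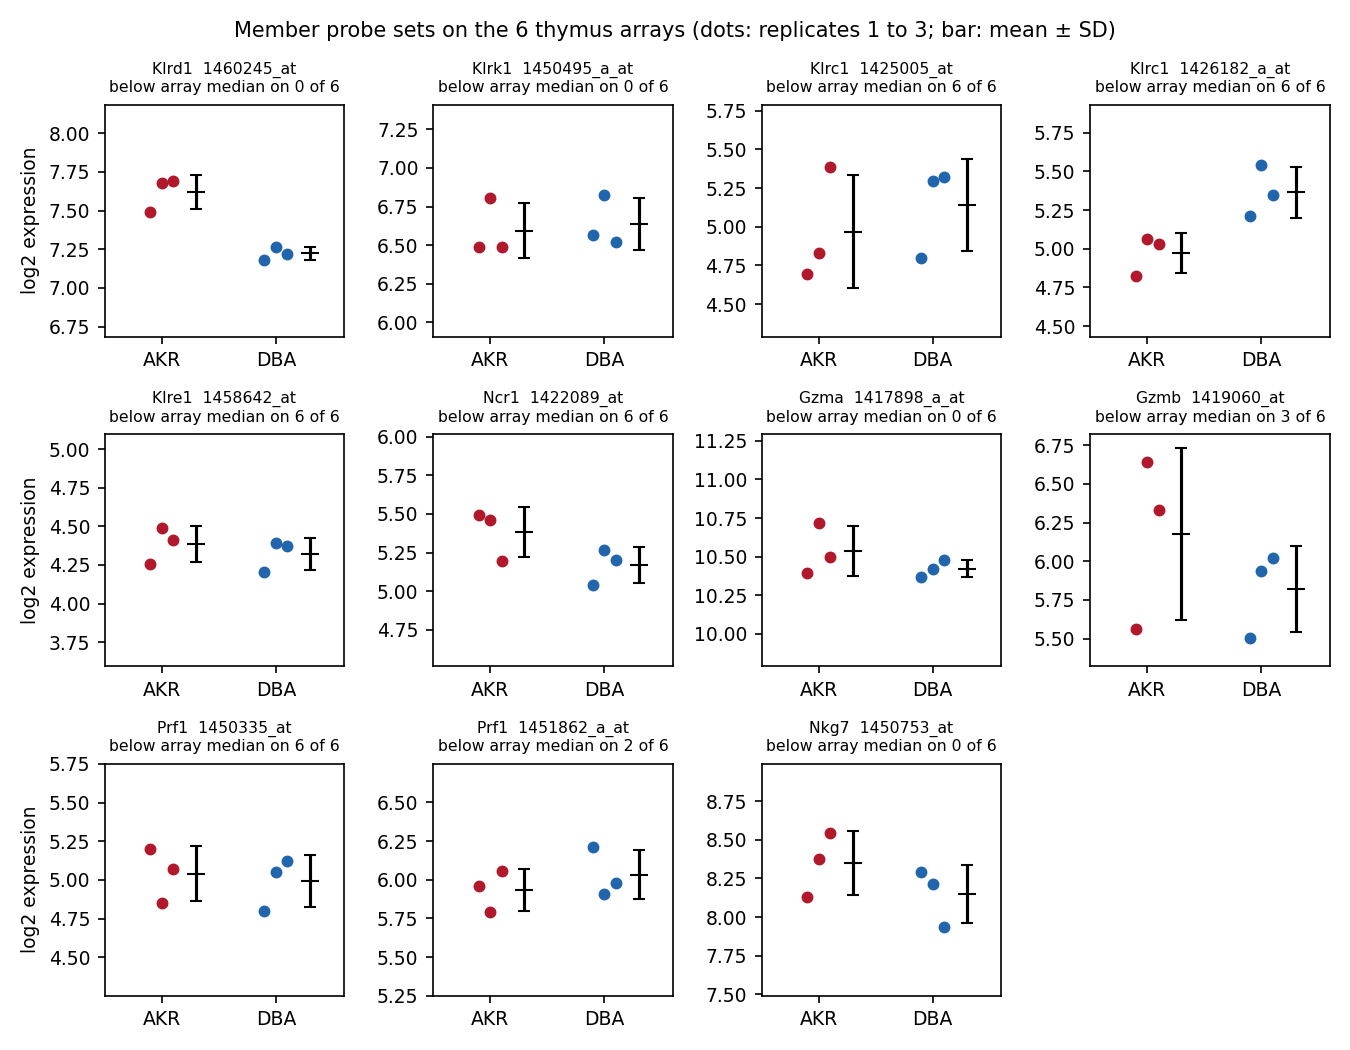
Log2 expression of the 11 probe sets on each array, with 3 dots per cross (replicates 1 to 3, left to right) and the mean ± SD beside them. Every panel spans the same 1.5 log2 units on its own axis, and the AKR and DBA dots are apart only for Klrd1 and Klrc1 1426182_a_at.

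Klrd1 was the only called probe set of the 8 tested, and it was higher in the AKR cross. Among all tested probe sets 27.2% were called, 12.2% as higher in the AKR cross, so 1 call among 8 is no more than the background. The median difference of the 8 was 0.16, against 0.01 over all 27374, and their median absolute difference was 0.19, against 0.18. The groups did not overlap for 2 of the 11 probe sets, against 35.5% of all probe sets without controls, and for 1 of the 8 tested, against 44.8% of those tested.

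Among the receptors, Klrd1 (probe set 1460245_at), which encodes CD94, stood at 7.49, 7.68 and 7.69 on the AKR arrays, against 7.18, 7.27 and 7.22 on the DBA arrays. All 3 AKR arrays were above all 3 DBA arrays. The means were 7.62 ± 0.11 for AKR arrays and 7.22 ± 0.04 for DBA arrays (SD, n = 3 each). The difference was 0.40 ± 0.09 (SE), or 1.32-fold with a 95% interval of 1.14 to 1.52 (adjusted p = 0.0118, limma). It kept its call in all 15 alternative settings, with differences from 0.36 to 0.46. Of all tested probe sets, 17.4% had a larger absolute difference than Klrd1. In whole thymus, fewer cells of a type and less RNA per cell cannot be told apart, here or for any gene below. Whether the probes match the AKR/J and DBA/2J sequences equally well was not checked for any gene either.

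Klrk1 (1450495_a_at), which encodes NKG2D, read 6.49, 6.80 and 6.49 in the AKR cross, against 6.56, 6.83 and 6.52 in the DBA cross. The groups overlapped, and in each the second replicate was the highest. The difference was -0.04 ± 0.13 (SE, adjusted p = 0.828, limma), with a 95% interval of 0.798-fold to 1.18-fold.

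Klrc1, which encodes the CD94 partner NKG2A, had a pair of dim probe sets. Klrc1 1425005_at read 4.69, 4.83 and 5.39 on the AKR arrays, against 4.79, 5.30 and 5.32 on the DBA arrays. It passed the filter through AKR replicate 3 and DBA replicates 2 and 3, and it was not called (-0.17 ± 0.20, SE, adjusted p = 0.559, limma). Klrc1 1426182_a_at read 4.82, 5.06 and 5.03 on the AKR arrays, against 5.21, 5.54 and 5.35 on the DBA arrays. Here all 3 AKR arrays were below all 3 DBA arrays, the opposite direction to Klrd1. This probe set was above the 40th percentile on 2 of the 6 arrays, so it was not tested with the filter. Its mean over all 6 arrays was 5.17, against 5.05 for 1425005_at, so it was not the dimmer of the pair. Without a filter the difference of 1426182_a_at was -0.39 ± 0.12 (SE, adjusted p = 0.0496, limma), just under the threshold. The other Klrc1 probe set stayed uncalled (adjusted p = 0.601, limma).

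The remaining receptors were dim. Ncr1 (1422089_at), the NKp46 gene, read 5.49, 5.46 and 5.20 in the AKR cross, against 5.04, 5.26 and 5.20 in the DBA cross. The lowest AKR array lay within the DBA range, and the difference of 0.22 ± 0.12 (SE) was not called (adjusted p = 0.199, limma). Its 95% interval ran from 0.968-fold to 1.39-fold. Klre1 (1458642_at), a lectin-like receptor gene of NK cells, lay between 4.26 and 4.49 on the AKR arrays and between 4.20 and 4.39 on the DBA arrays, below the 40th percentile on all 6. The probe set shared by Klrb1b and Klrb1c (1449570_at), which cannot be given to either gene, averaged 6.15 ± 0.06 on AKR arrays and 6.23 ± 0.14 on DBA arrays (SD, n = 3 each) and was not called (adjusted p = 0.596, limma). Klrb1c encodes NK1.1.

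No probe set of the 4 effector genes was called. Gzma (1417898_a_at), the granzyme A gene, read 10.39, 10.72 and 10.50 on the AKR arrays, against 10.37, 10.42 and 10.48 on the DBA arrays. The groups overlapped, with AKR replicate 2 the highest of all. All 6 values were above the 95th percentile of their array. The difference was 0.11 ± 0.08 (SE, adjusted p = 0.335, limma), with a 95% interval of 0.950-fold to 1.23-fold.

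Gzmb (1419060_at), the granzyme B gene, spread most within a cross, with 5.56, 6.64 and 6.33 on the AKR arrays, against 5.50, 5.93 and 6.02 on the DBA arrays. AKR replicates 2 and 3 were above every DBA array, while AKR replicate 1 was below DBA replicates 2 and 3. The SD was 0.56 over AKR arrays and 0.28 over DBA arrays, and the difference of 0.36 ± 0.25 (SE) was not called (adjusted p = 0.317, limma). Its 95% interval of 0.865-fold to 1.90-fold is the widest of the 8. Without AKR replicate 1 the difference was 0.67 and was called (adjusted p = 0.0287, limma), and without AKR replicate 2 it was 0.13 (adjusted p = 0.750, limma). Gzmb was called in no other alternative, and without DBA replicate 1 its difference was 0.20 (adjusted p = 0.628, limma).

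Prf1, the perforin gene, gave differences of opposite sign on its probe sets. Prf1 1451862_a_at read 5.96, 5.79 and 6.05 on the AKR arrays, against 6.21, 5.91 and 5.98 on the DBA arrays. The groups overlapped and the difference was -0.10 ± 0.12 (SE, adjusted p = 0.559, limma). The dimmer Prf1 1450335_at ranged from 4.85 to 5.20 on the AKR arrays and from 4.80 to 5.12 on the DBA arrays, and its means differed by 0.05. Nkg7 (1450753_at), which encodes a granule membrane protein of cytotoxic lymphocytes, read 8.13, 8.37 and 8.55 on the AKR arrays, against 8.29, 8.21 and 7.94 on the DBA arrays. AKR replicate 1 lay within the DBA range, and the difference of 0.20 ± 0.13 (SE) was not called (adjusted p = 0.268, limma; 95% interval 0.942-fold to 1.40-fold).

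**Figure D2:**
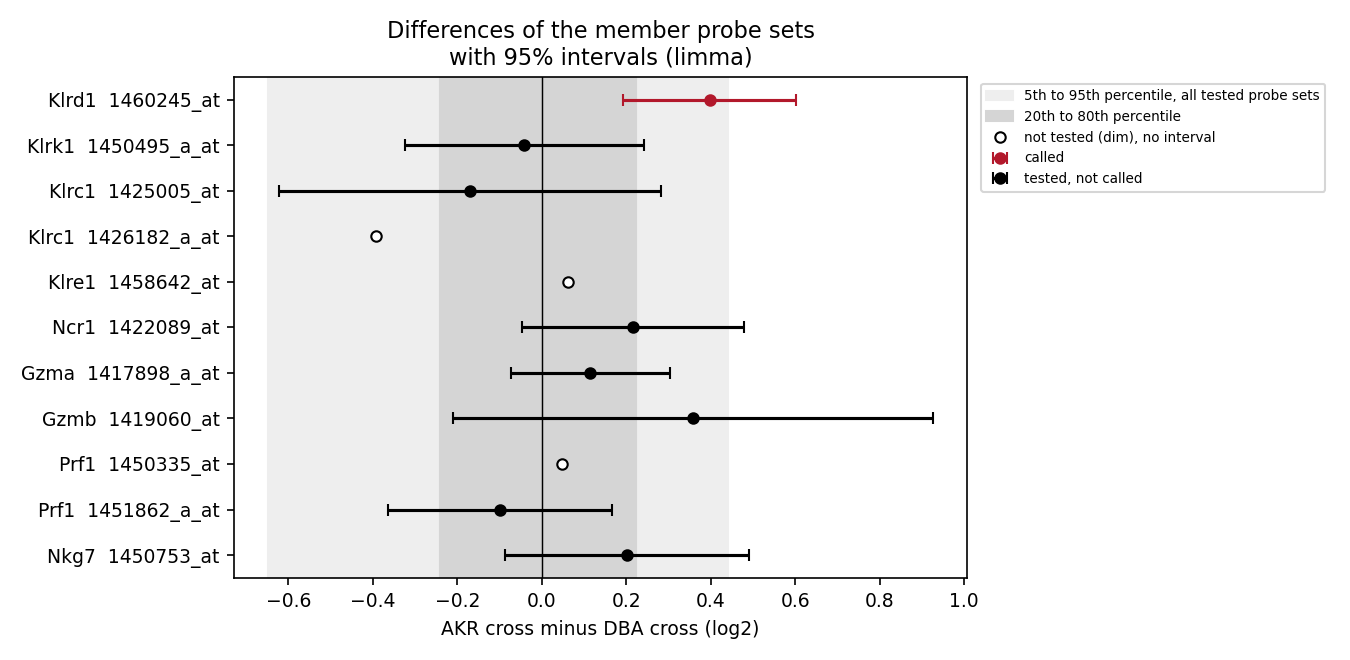
Difference of each probe set in log2 units (AKR cross minus DBA cross), with limma's 95% interval where it was tested and an open circle where it was too dim. Shaded bands give the 20th to 80th and the 5th to 95th percentiles of all tested probe sets, and only the Klrd1 interval lies wholly on one side of 0.

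Single arrays were low across many of these probe sets. Replicate 1 was the lowest array of its cross for 7 of the 11 probe sets in the AKR cross and for 8 in the DBA cross. The share over all probe sets is not given here, so these counts are a description only. DBA replicate 1 also had the highest mean of the 3 muscle markers (Myh4, Acta1 and Ckm), at 10.46, against 5.85 and 7.32 on the other DBA arrays and 7.55, 7.68 and 5.43 on the AKR arrays. None of the 3 was called, and their part in the member values was not tested. Without DBA replicate 1 the Klrd1 difference was 0.38 and was still called (adjusted p = 0.0335, limma).

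Levels of other cell types were compared by the mean of each marker list on an array. For the 9 NK genes with a probe set, this mean was 6.51 to 6.78 on the AKR arrays and 6.51 to 6.64 on the DBA arrays, so the crosses overlapped. Markers of natural killer T (NKT) and innate-like T cells, which share some receptors with NK cells, averaged 7.86 to 8.0 on the AKR arrays and 8.76 to 8.79 on the DBA arrays. Of the 6 measured, 4 were called lower in the AKR cross (Zbtb16, Icos, Maf and Cxcr6), and Il2rb and Cd44 were not called on their probe sets of highest mean. Another Cd44 probe set was called lower in the AKR cross (-0.67 ± 0.07, SE, adjusted p = 0.000227, limma), and a further one was not called (-0.17). B cell markers went the other way, at 7.39 to 7.56 on AKR arrays and 7.01 to 7.20 on DBA arrays, with 3 of 4 called (Cd79a, Cd79b and Pax5). The 8 thymocyte markers averaged 11.520 to 11.644 on AKR arrays and 11.482 to 11.517 on DBA arrays, so the crosses narrowly did not overlap. Of these, Cd3e was called higher in the AKR cross (0.30), Cd1d1 was called lower (-0.26) and 6 were not called. Among all 12849 tested genes, 12.0% were called lower and 13.1% higher in the AKR cross. The summed log2 level of the NK genes, which restates their mean, was 58.6 to 61.0 on AKR arrays and 58.6 to 59.8 on DBA arrays. That of the innate-like T cell markers was 47.2 to 48.0 on AKR arrays and 52.6 to 52.7 on DBA arrays. The part of these cells in the Klrd1 difference was not tested.

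**Figure D3:**
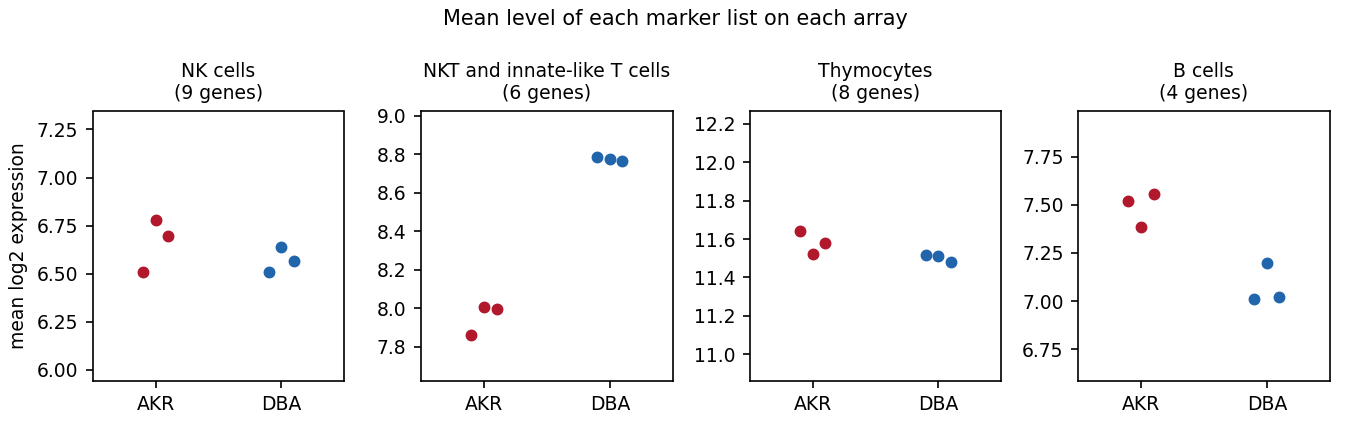
Mean log2 level of 4 marker lists on each array, 3 dots per cross, every panel spanning the same range of log2 units. NK genes overlapped between the crosses, innate-like T cell markers were lower on all AKR arrays, and B cell markers were higher on all AKR arrays. Thymocyte markers were also higher on all AKR arrays, by a narrow margin (lowest AKR array 11.520, highest DBA array 11.517).

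Genes next to Klrd1 were looked up in a RefSeq gene table. On one side, the nearest genes with a probe set of their own were Klre1, which was dim, and Gabarapl1, an autophagy gene, which was not called (0.09 ± 0.07, SE, adjusted p = 0.377, limma). On the other side came Klrk1 and then Klrc3 and Klrc2, genes of NKG2 family receptors that were below the 40th percentile on all 6 arrays. Over the nearest 3 genes on each side of every receptor gene in the NK gene complex, 14 genes were not members. Only 5 of these were tested, and Clec2i, the third gene on one side of Klrb1c, was the 1 called. Among all tested genes 25.0% were called. Whether Klrd1 differed more than its neighbours was not tested.

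Across the wider pathway, 8 lists held 110 further gene symbols, of which 88 had a probe set of their own and 63 were tested. With each gene represented by its tested probe set of highest mean, 7 were higher and 11 were lower in the AKR cross, 28.6% of those tested, against 25.0% of all 12849 genes (13.1% higher and 12.0% lower in the AKR cross). The median difference of the 63 was -0.02. After quantile normalization the calls were 10 higher and 9 lower, and with median centring 9 higher and 9 lower, so the lean to the DBA cross depended on scaling. The calls numbered 18 with all arrays, 10 without DBA replicate 2 and 11 without DBA replicate 3.

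Other killer lectin-like receptors were mostly at dim levels. Of 22 listed, 13 had a probe set of their own and 10 of these (Klra1, Klra2, Klra7, Klra8, Klra17, Klrb1a, Klrb1b, Klrb1f, Klrc2 and Klrc3) lay below the array median on all 6 arrays and were not tested. Their mean levels ran from 2.85 to 4.81, and their differences from -0.09 to 0.17. The 3 tested genes were Klra5, Klrg2 and Klrg1, and none was called. Klra5, a Ly49 receptor gene, differed by -0.10 ± 0.15, Klrg2 by 0.15 ± 0.12 and Klrg1, an inhibitory receptor gene, by 0.28 ± 0.10 (SE, adjusted p = 0.0564 for Klrg1, limma). Ly49 genes are near-identical copies of each other in places, so their probe sets may share signal.

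Among 10 tested receptors of other families, 2 were called (20%, against 25.0% of all tested genes). Cd244a, which encodes the receptor 2B4, was higher in the AKR cross (0.37 ± 0.12, SE, adjusted p = 0.0422, limma). Its call held only without DBA replicate 1 when single arrays were left out (adjusted p up to 0.129, limma). Fcgr3, the low-affinity Fc receptor gene that serves antibody-dependent killing and is also expressed by myeloid cells, was lower in the AKR cross. It read 7.42, 7.88 and 7.66 on the AKR arrays, against 8.19, 8.30 and 8.15 on the DBA arrays (-0.56 ± 0.12, SE, adjusted p = 0.00820, limma). The other 8 did not pass. In the list of mast cell and neutrophil markers 4 were tested. The neutrophil markers S100a8 (-0.96) and S100a9 (-0.97) were also called lower in the AKR cross. The mast cell markers Cpa3 (-0.21) and Cma1 (-0.05) were not called. The mean of this list of 5 was 6.72 to 7.14 on AKR arrays and 7.31 to 7.51 on DBA arrays. Its summed level, which restates the mean, was 33.6 to 35.7 on AKR arrays and 36.5 to 37.6 on DBA arrays. The part of these cells in the Fcgr3 difference was not tested.

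Receptor adaptors and kinases had 2 genes higher and 1 lower in the AKR cross of 12 tested. This share of 25% is no more than the 25.0% called among all tested genes. Tyrobp encodes DAP12, the signalling adaptor of several activating NK receptors, also present in myeloid cells. It read 10.31, 10.09 and 10.11 on the AKR arrays, against 9.82, 9.89 and 9.87 on the DBA arrays, with no overlap (0.31 ± 0.07, SE, adjusted p = 0.0143, limma). The 4 tested macrophage and myeloid markers went both ways. Lyz2 was called higher in the AKR cross (0.27), and Cd68 (0.23), Adgre1 (-0.29) and Csf1r (-0.04) were not called. The mean of this list overlapped, at 8.55 to 8.68 on AKR arrays and 8.56 to 8.77 on DBA arrays, and the part of myeloid cells was not tested. Hcst, which encodes DAP10, the NKG2D adaptor, did not pass (0.07 ± 0.10). Zap70 (0.31 ± 0.09) was called higher in the AKR cross and Fyn (-0.26 ± 0.08) lower. The 2 further Zap70 probe sets were not called (0.20 and 0.10), and that of Fyn was called lower in the AKR cross (-0.64). Both are kinase genes of T cell receptor signalling too.

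Genes of NK development and cytokine response had 4 of 12 tested genes lower and 1 higher in the AKR cross, with a median of -0.26. The shares over all tested genes were 12.0% lower and 13.1% higher. Il18r1, a chain of the interleukin-18 receptor, was at 8.14, 8.08 and 8.28 on the AKR arrays, against 8.85, 8.95 and 8.91 on the DBA arrays (-0.74 ± 0.08, SE, adjusted p = 0.000324, limma). Its partner chain Il18rap was also lower in the AKR cross (-0.31 ± 0.10, SE, adjusted p = 0.0402, limma), a call lost under both quantile normalization and median centring. Its other probe set was not called (-0.28). Id2, an inhibitor of E proteins needed for NK cells, differed by -0.68 ± 0.09, with no call for its 2 further probe sets (-0.11 and 0.04). Il7r, the interleukin-7 receptor gene, differed by -0.62 ± 0.16, and its other probe set was also called (-1.06). Tox was the gene called higher in the AKR cross (0.35 ± 0.09), but of its other probe sets 1 was called in the opposite direction (-0.77). The factor genes Eomes (-0.67 ± 0.31) and Tbx21 (0.11 ± 0.25), which drive NK maturation, did not pass, nor did the other Eomes probe set (-1.08). All of these genes also act in T cells.

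Further granule genes went both ways, with 3 of 10 tested called (30%, against 25.0% of all tested genes). Gzmm, the granzyme M gene, was higher in the AKR cross (0.31 ± 0.10, SE, adjusted p = 0.0431, limma), and its call was lost whichever array was left out (adjusted p up to 0.122). Ctsc, which encodes the protease that activates granzymes, was lower in the AKR cross (-0.25 ± 0.05), as was Srgn, the granule proteoglycan gene (-0.23 ± 0.05). The 7 granzyme genes Gzmc, Gzmd, Gzme, Gzmf, Gzmg, Gzmk and Gzmn were below the array median on all 6 arrays and not tested. Of 9 granule exocytosis genes, all tested, 3 were called (33.3%, against the same 25.0%). Lyst, a regulator of lysosome-related organelles, read 9.29, 9.24 and 9.41 on the AKR arrays, against 9.93, 10.06 and 9.95 on the DBA arrays (-0.67 ± 0.07, SE, adjusted p = 0.000297, limma). Its other probe set was called in the same direction (-0.65). Stxbp2 (0.29 ± 0.07), which encodes a binding partner of syntaxins, and Coro1a (0.22 ± 0.05), an actin regulator gene, were called higher in the AKR cross. Both further Stxbp2 probe sets were called higher there too (0.29 and 0.25), and neither of those of Coro1a was called (0.47 and 0.14).

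Effector cytokine genes showed no call among 4 tested. Ccl5, a chemokine gene, averaged 10.10 on AKR arrays and 9.93 on DBA arrays (0.17 ± 0.08, SE), and Tnf differed by 0.27 ± 0.14. Xcl1, also a chemokine gene, differed by 0.32 ± 0.13 (adjusted p = 0.0929, limma) and Ccl4 by 0.03 ± 0.11. Ifng, Ccl3 and Csf2 were below the array median on all 6 arrays. Among 12 listed ligand genes only 3 were tested, and 2 of them were called, against 25.0% of all tested genes. Clec2d and Clec2i, which encode lectin-like ligands of Klrb1 family receptors, were lower in the AKR cross. Clec2d read 7.32, 7.30 and 7.31 on the AKR arrays, against 8.36, 8.04 and 7.68 on the DBA arrays (-0.72 ± 0.15, SE, adjusted p = 0.00805, limma). Clec2i read 7.64, 6.85 and 7.44 on the AKR arrays, against 8.03, 8.15 and 7.90 on the DBA arrays (-0.71 ± 0.18, SE, adjusted p = 0.0183, limma), and its call was lost without DBA replicate 2 (adjusted p = 0.0674, limma). The other Clec2i probe set was not called (-0.49). Clec2h, the third tested ligand gene, had the opposite sign and was not called (0.13 ± 0.10, SE, adjusted p = 0.362, limma). The NKG2D ligand genes H60c and Ulbp1 were below the array median on all 6 arrays.

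Of the 18 calls in these lists, 8 held whichever array was left out, namely Clec2d, Coro1a, Ctsc, Fcgr3, Id2, Il18r1, Lyst and Tyrobp. The other 10 were lost without at least 1 array, and no sign changed with an array left out. With the mean of the probe sets of a gene, Tox turned to -0.16 and was not called (adjusted p = 0.274, limma), and Id2 was not called (-0.25, adjusted p = 0.0529, limma). Fyn and Il18rap held only without AKR replicate 3 (adjusted p up to 0.135 for Fyn and 0.118 for Il18rap, limma). Il7r held only without AKR replicate 3 or DBA replicate 1 (up to 0.0824, limma), and Zap70 only without AKR replicate 2 or DBA replicate 1 (up to 0.0923, limma). Stxbp2 was lost without AKR replicate 3 or DBA replicate 2 (up to 0.0593, limma). Tox was lost without DBA replicate 2 or 3 (up to 0.0609, limma), and Srgn without DBA replicate 2 (0.0548, limma). With no filter on dim probe sets, Cd244a, Fyn, Gzmm and Il18rap were not called, and without a variance trend Coro1a, Fyn, Srgn and Zap70 were not. Quantile normalization and median centring ended the Fyn call too, as did array weights, and robust variance estimation ended that of Il7r.

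**Figure D4:**
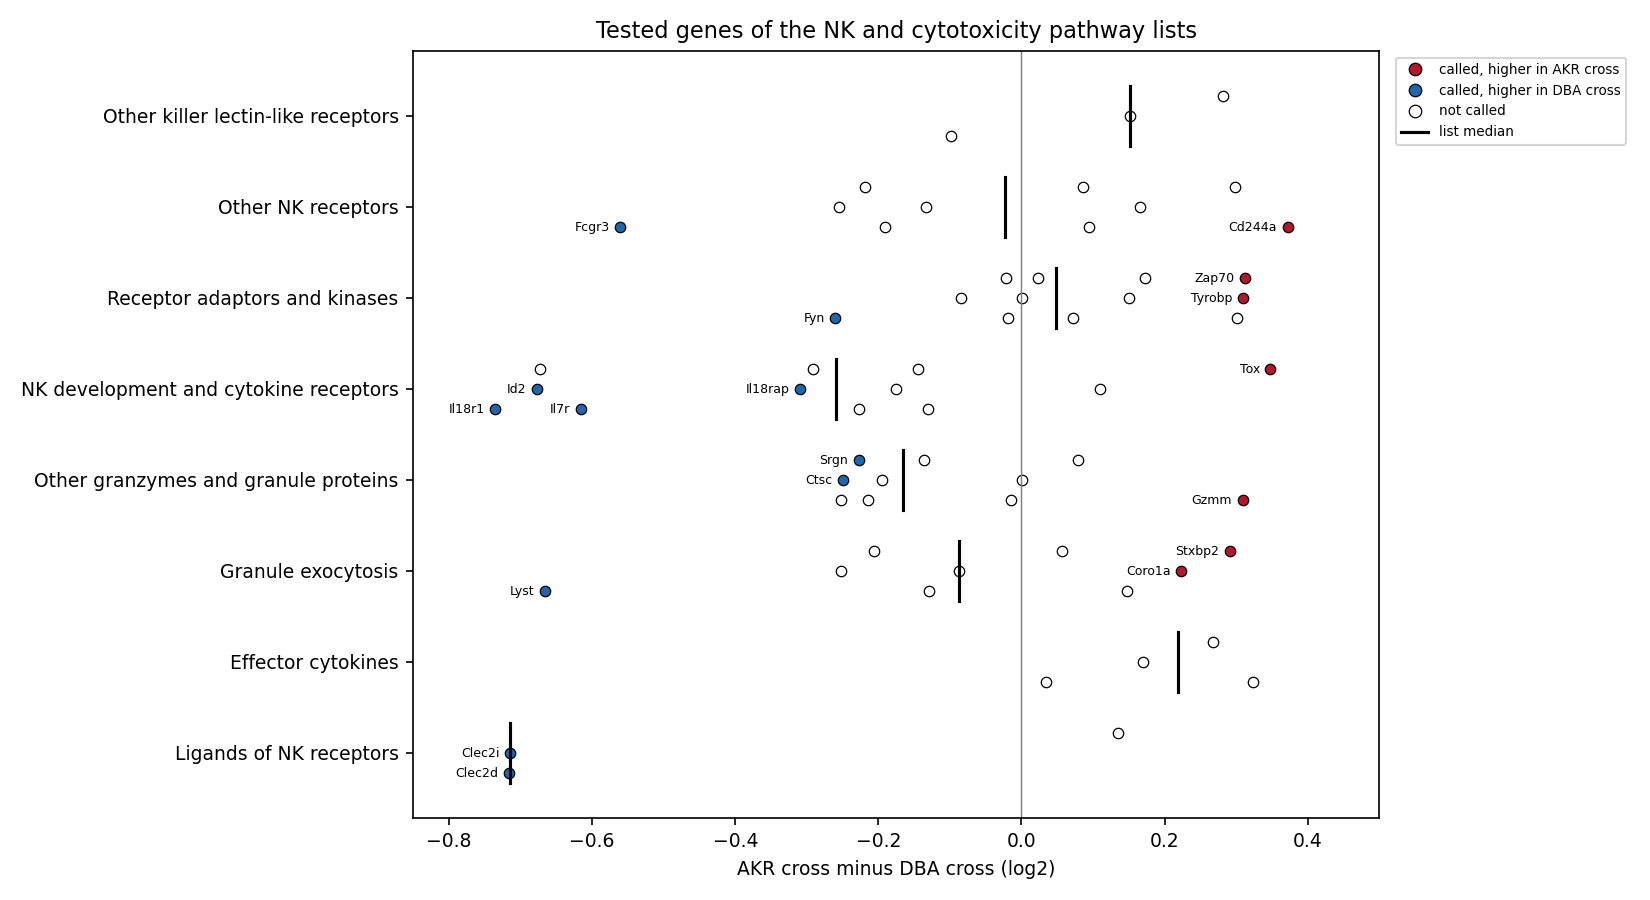
Difference in log2 units (AKR cross minus DBA cross) of the 63 tested pathway genes, by list, with the list median as a bar. Called genes are filled and named, with 7 to the right of 0 (higher in the AKR cross) and 11 to the left.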

How the data were processed

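The deposited table held 1 log2 value per probe set and array, computed by the authors from the scanned arrays. Per the submitters' processing notes, MAS5 and RMA were used, with no role or version, and the step that gave these values is not stated there. The array medians were nearly equal, and the values were used without further normalization. After 64 control probe sets were left out, 27374 passed the filter. Differences were fitted with limma 3.58.1 (R 4.3.3), using lmFit and eBayes with a mean-variance trend and two-sided tests, with the AKR cross over the DBA cross. The fit was tested on simulated data. The platform annotation gave 1 symbol for 34958 probe sets, of which 34754 matched a RefSeq table (assembly GRCm38.p6) by Entrez identifier, with 0 symbols changed. That table served for names, chromosomes and neighbours only. Every gene of the set was named with all its probe sets, and from each pathway list up to 4 called genes, taken by adjusted p, or, where none passed, up to 2 as values. Il18rap, Klrg1, Xcl1, Ccl4, Eomes, Tbx21, Hcst, Clec2h, Gabarapl1, uncalled markers and untested genes lie outside that rule and were named after their values were seen. Members and lists were chosen with earlier results of these data known. Alternatives were other filters, normalizations, a floor, variance models, weights per array, a replicate block, arrays left out in turn, and averaging the probe sets of a gene. Figures used matplotlib 3.10.9 under Python 3.11.15.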

Additional observations from a re-analysis of the deposited data

How the results depend on the processing

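The Klrd1 call held in all 15 alternatives (adjusted p from 0.00553 to 0.0441, limma). The number of called probe sets in the set was 1 in 13 of 15 alternatives. It was 2 with no filter on dim probe sets, where Klrc1 1426182_a_at joined, and it ran from 1 to 2 with 1 array left out, where Gzmb joined without AKR replicate 1 (difference 0.67). Klrk1, never called, ran from -0.15 (without AKR replicate 2) to 0.053 (without DBA replicate 2), and was also above 0 without AKR replicate 1 (0.01) or AKR replicate 3 (0.01). Klrc1 1425005_at, Ncr1, Klrk1, Gzmb and Prf1 gave no value under the stricter 60th percentile filter. The 18 calls in the pathway lists ran from 10 to 17 with 1 array left out, and from 14 to 23 in the other alternatives. Over all probe sets the 7447 calls ran from 5159 to 9836, and the 3336 higher in the AKR cross fell to 2212 without DBA replicate 2 and to 2158 without DBA replicate 3. With the replicate number as a block, 9836 probe sets, 1 probe set of the set and 22 pathway genes were called. Deviations of same-numbered arrays correlated at 0.39, 0.07 and 0.37, and those of differently numbered arrays at -0.38 to 0.07. Of the 6 arrays, 5 correlated best with their own number. The labels do not say whether the numbers pair the arrays, and the main fit did not use them. The small number of arrays and low signal, whose background part was not tested, limit the 5 dim probe sets.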
